A study of Mus musculus with 9 samples.

Results

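Immediate early genes outside the AP-1 family were followed in mouse embryonic stem (ES) cells that were starved of a single amino acid. They were 10 genes taken by their GENCODE symbol, namely Egr1, Ier2, Ier3, Ier5, Nr4a1, Klf6, Klf10, Zfp36, Zfp36l1 and Maff, among 20189 genes in the count table. All 10 were among the 20143 genes with at least 1 count that were tested. The cells were wild-type E14, a line of pluripotent mouse ES cells, and each of the 3 groups had 3 libraries. They comprised cells without cysteine (Cys-starved), cells without threonine (Thr-starved) and cells kept in medium with all amino acids (unstarved). Cells were grown with LIF, and the medium change lasted 3 h in a protocol that names Arg and Leu as the amino acids left out. No group carried a mutation, and the sources used here do not say whether the 3 samples of a group came from separate cultures, so the p-values measure the spread between these samples, which may be technical.

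Immediate early genes are transcribed within minutes of a stimulus without the need for new protein synthesis, and their mRNAs are as a rule short-lived. Growth factors acting through ERK, the ternary complex factors and SRF switch many of them on, and stress kinases and CREB act on others. The genes studied here encode zinc-finger transcription factors (Egr1, Klf6, Klf10), an orphan nuclear receptor (Nr4a1), a small MAF protein (Maff), short regulatory proteins (Ier2, Ier3, Ier5) and proteins that bind AU-rich elements in mRNA and speed its decay (Zfp36, Zfp36l1).

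The total count ranged from 48763102 to 74962733 per library. All 7 ES cell markers were expressed, with a summed level of 3572 to 3948 CPM (counts per sequencing depth, with TMM factors applied to the library totals) over the 9 libraries. Of 6 fibroblast markers, Postn, Lum and Dcn were not among the tested genes, and the other 3 summed to 12.8 to 13.1 CPM in unstarved, 11.3 to 13.8 CPM in Cys-starved and 8.93 to 9.96 CPM in Thr-starved libraries. With Thr, Thy1 went from 3.24 to 0.882 CPM and Col1a1 from 5.06 to 3.89 CPM. Col1a2 was at 4.62 and 4.83 CPM and was not called. Of 8 germ layer markers 6 were tested, at a sum of 13.6 to 14.8 CPM in unstarved, 16.4 to 17.2 CPM in Cys-starved and 13.8 to 15.0 CPM in Thr-starved libraries. The sums hide shifts in both directions with Thr. Among ES cell markers, Nanog went from 283 to 212 CPM and Sox2 from 397 to 537 CPM. Among germ layer markers, T went from 3.39 to 1.17 CPM and Foxa2 from 0.324 to 1.07 CPM. With Cys, Pou5f1, Nanog, Sox2, Tdgf1 and Dppa5a were called lower, and Zfp42 and Esrrb higher. Tdgf1 went from 328 to 232 CPM, Sox2 from 397 to 346 CPM and Esrrb from 487 to 583 CPM with Cys. Thy1 was also called lower with Cys, and Gata4, Pax6 and Foxa2 higher. The part of these shifts in the results below was not tested.

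The members are compact genes. Their median length on the genome was 5211 bases, against 23270 bases for 14731 tested genes with a coding transcript, although their transcripts were of ordinary length (median 2890 against 2908 bases). The transcript with the longest coding sequence had 1 exon in Ier2 and Ier5 and 2 exons in Ier3, Zfp36, Zfp36l1 and Egr1. So 6 of 10 members had 1 or 2 exons, against 9.03% of all. The longest gene, Nr4a1, spanned 20527 bases, and its transcript with the longest coding sequence had 8 exons. The pentamer ATTTA, the core of AU-rich elements, was present in the 3' UTR of 9 of 10 members and of 65.2% of 14342 genes with an annotated 3' UTR. The nonamer TTATTTATT, to which proteins of the ZFP36 family are known to bind, was present in 3 of 10 members (Zfp36, Zfp36l1 and Maff) and in 7.42% of those genes. The 3' UTRs of the members were longer (median 1218 bases, against 908 over the 14731 genes), and these shares were not adjusted for length. The 4 nonamers (only the sense strand was searched) are shown because both decay factors of the set, whose family binds this sequence, hold one. Capitals mark the nonamer, and the coordinates are on GRCm38.
Zfp36 (chr7:28376951-28376979, minus strand): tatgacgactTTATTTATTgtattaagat
Zfp36l1 (chr12:80108167-80108195, minus strand): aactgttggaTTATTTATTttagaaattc
Maff (chr15:79358778-79358806, plus strand): ttccacactcTTATTTATTgcacgaatct
Maff (chr15:79358977-79359005, plus strand): ctcccagagtTTATTTATTttctgacttc

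Promoter windows of RefSeq on GRCm38.p6, from 250 bases before to 50 bases after a start site, were found for 7 of the 10 members. The 250 bases before the start are printed for the gene that rose most (Klf6), the gene that fell most with Thr starvation (Nr4a1), a gene called lower with Cys and not with Thr (Zfp36), and a gene called higher with Thr and not with Cys (the middle of 3 Maff windows). Capitals mark 4 motifs searched on both strands, which are the CArG box bound by SRF, TGACG (a CRE half-site, bound by CREB and ATF proteins, so that a full TGACGTCA holds 2 of them), TGATGNAA (the core of the C/EBP-ATF element) and GCGNGGGCG (bound by EGR proteins). None of these overlapped another kind of marked motif in the windows shown.
Klf6 (chr13:5861239-5861488, plus strand): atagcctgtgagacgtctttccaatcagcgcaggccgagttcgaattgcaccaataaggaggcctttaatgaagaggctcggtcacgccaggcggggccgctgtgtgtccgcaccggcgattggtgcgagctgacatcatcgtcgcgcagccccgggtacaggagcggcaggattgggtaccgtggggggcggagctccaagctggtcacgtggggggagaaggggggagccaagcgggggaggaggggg
Nr4a1 (chr15:101266596-101266845, plus strand): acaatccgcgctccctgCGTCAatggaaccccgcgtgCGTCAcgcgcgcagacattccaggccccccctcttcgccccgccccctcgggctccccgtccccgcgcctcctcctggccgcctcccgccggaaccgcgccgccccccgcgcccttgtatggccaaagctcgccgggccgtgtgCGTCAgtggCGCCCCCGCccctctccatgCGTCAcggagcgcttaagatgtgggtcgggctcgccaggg
Zfp36 (chr7:28379229-28379478, minus strand): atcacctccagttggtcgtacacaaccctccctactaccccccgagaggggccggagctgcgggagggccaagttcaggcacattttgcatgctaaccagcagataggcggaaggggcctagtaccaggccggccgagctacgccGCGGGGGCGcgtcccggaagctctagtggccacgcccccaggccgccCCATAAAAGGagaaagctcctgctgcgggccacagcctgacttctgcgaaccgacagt
Maff (chr15:79347270-79347519, plus strand): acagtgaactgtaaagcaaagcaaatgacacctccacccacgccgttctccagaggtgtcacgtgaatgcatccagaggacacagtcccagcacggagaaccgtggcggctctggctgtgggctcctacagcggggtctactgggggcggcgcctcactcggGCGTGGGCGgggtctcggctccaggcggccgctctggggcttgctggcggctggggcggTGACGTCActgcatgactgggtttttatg

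Counting back from the start site, the Nr4a1 window held TGACG at -233, -213, -69 and -40 and GCGNGGGCG at -60. In Zfp36 a CArG box lay at -58 and GCGNGGGCG at -105, and in Maff a full TGACGTCA lay at -29 with GCGNGGGCG at -88. The Klf6 window held none of the 4. The printed windows of Nr4a1, Zfp36 and Maff lie inside the annotated gene spans, so their start sites are not the outermost ones. The middle Maff window was chosen for its motifs, since of the other Maff windows one held none of the 4 and one held only TGACG, at -122. Windows of Ier3, Ier5 and Zfp36l1 also held none of the 4. Over 32851 windows of this length, the CArG box was found in 1.63%, TGACG in 20.8%, TGACGTCA in 1.79%, TGATGNAA in 3.97% and GCGNGGGCG in 5.55%. A match is a run of letters and not a measured binding site.

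The question was whether a lack of Thr or of Cys switched this class of genes on together. All libraries came from a single time of 3 h, so an earlier and short-lived joint rise could have passed unseen. At that time the members went in both directions. With Thr starvation, 6 of 10 genes were called higher, 2 lower and 2 were not called (edgeR's quasi-likelihood test, adjusted p of 0.05 or less over all genes). Of all tested genes, 31.1% were called higher and 31.9% lower in the same comparison, and 80.6% of the 11410 genes that averaged 5 CPM or more were called in either direction. The count of called members is therefore close to that of expressed genes in general. Changes of at least 2-fold were found in 4 members (Klf6, Klf10, Maff and Nr4a1), against 13.2% of all tested genes and 7.91% of those averaging 5 CPM or more. The median log2 fold change of the members was 0.51 (range -1.27 to 1.94), and that of all genes was -0.02. In 8 members all Thr-starved libraries lay on one side of all unstarved ones, against 66.5% of all genes. In bulk RNA, fewer cells with a transcript and less of it per cell cannot be told apart.

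**Figure D1:**
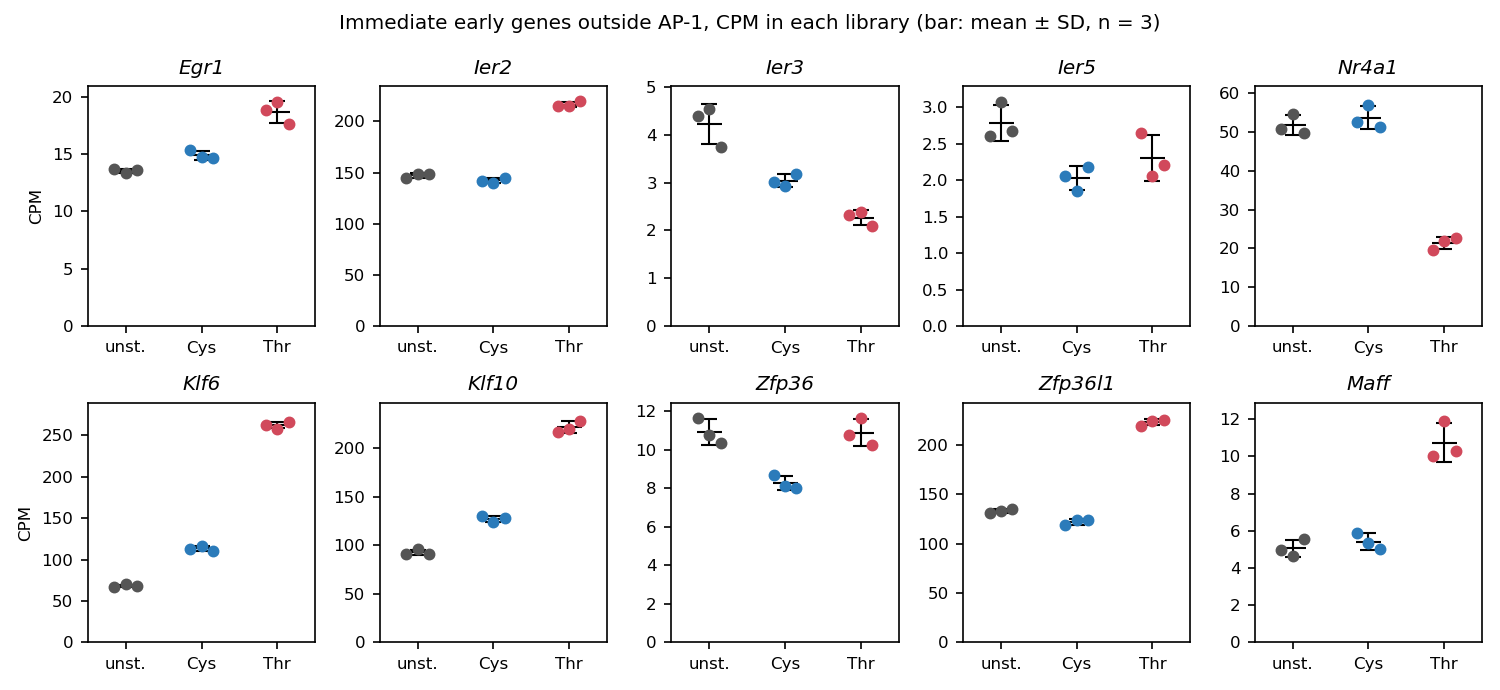
Level of each of the 10 genes in CPM (y axis, from 0) in the 3 unstarved (unst.), 3 Cys-starved and 3 Thr-starved libraries; points are libraries and bars the mean ± SD. Klf6 and Klf10 step up from unstarved to Cys to Thr, Nr4a1 is low only in the Thr-starved libraries (19.5 to 22.6 CPM), and Zfp36 is lowest in the Cys-starved ones.

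With Cys starvation the members changed less. Klf6 and Klf10 were called higher, Ier3, Ier5, Zfp36 and Zfp36l1 lower, and 4 were not called. The shares over all genes were 17.5% higher and 18.8% lower, and of the genes averaging 5 CPM or more 55.0% were called in either direction, so that the 6 called members were close to expressed genes in general here too. No member reached 2-fold, as 1.47% of all genes did. The libraries did not overlap in 7 members, against 46.4% of all genes, and the median log2 fold change was 0.0023. How the calls divided between higher and lower moved with the scaling here. Over all genes 48.2% of the calls were higher, but 36.8% when the deposited size factors were used and 68.0% with library totals alone. Among the members the same settings gave 2 higher and 5 lower, and 3 higher and 3 lower. Both starvations were set against the same 3 unstarved libraries, so their changes are not independent of each other.

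Klf6 and Klf10 rose in both starvations, more with Thr than with Cys. Klf6 (ENSMUSG00000000078; chromosome 13 of GRCm38, 5861482 to 5870394) encodes a Krüppel-like factor that binds GC-rich promoters and is induced by serum and injury. It was at 67.2, 70.0 and 67.8 CPM in the unstarved, 113, 116 and 111 CPM in the Cys-starved and 262, 258 and 266 CPM in the Thr-starved libraries. The 3 groups stood apart, with Cys between the others. The log2 fold change was 1.94 with Thr (SE 0.027, adjusted p = 1.6e-23 from edgeR) and 0.73 with Cys (SE 0.027, adjusted p = 4.3e-15 from edgeR). By this change Klf6 ranked 21 from the top with Thr and 89 with Cys among the 11410 genes averaging 5 CPM or more.

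Klf10 (ENSMUSG00000037465; chromosome 15, 38291463 to 38300706), also known as TGFβ-inducible early gene and a repressor of transcription, followed the same steps at a smaller size. Its level was 90.8, 95.7 and 90.9 CPM in unstarved, 130, 124 and 128 CPM in Cys-starved and 216, 219 and 228 CPM in Thr-starved libraries. Again no group overlapped another. The increases were 1.26 with Thr (SE 0.029, adjusted p = 6.4e-20 from edgeR) and 0.46 with Cys (SE 0.029, adjusted p = 4.1e-11 from edgeR) on the log2 scale.

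The listed KLF genes, a part of the family, split. Of the 12 listed besides Klf6 and Klf10, 4 were called higher and 7 lower with Thr (median log2 fold change -0.14, against -0.02 over all genes). With Cys 6 of them were called higher and 4 lower (median 0.088, against 0.0068). Over all tested genes, 31.1% were called higher and 31.9% lower with Thr, and 17.5% and 18.8% with Cys. These shares also stand beside the counts of the lists below. Klf11, the closest relative of Klf10, rose by 1.17 with Thr (SE 0.047) and 0.38 with Cys (SE 0.048). Klf13 and Klf16, which also bind GC boxes, had log2 fold changes of -1.24 (SE 0.033) and -1.13 (SE 0.039) with Thr, and of -0.11 and -0.24 with Cys. Klf7 rose more with Cys (0.70, SE 0.058) than with Thr (0.43, SE 0.059), the reverse of Klf6, and the direct difference between the starvations was -0.27 (SE 0.056, adjusted p = 0.00022 from edgeR). Klf15 had changes of -0.20 with Thr and 0.31 with Cys, both called.

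**Figure D2:**
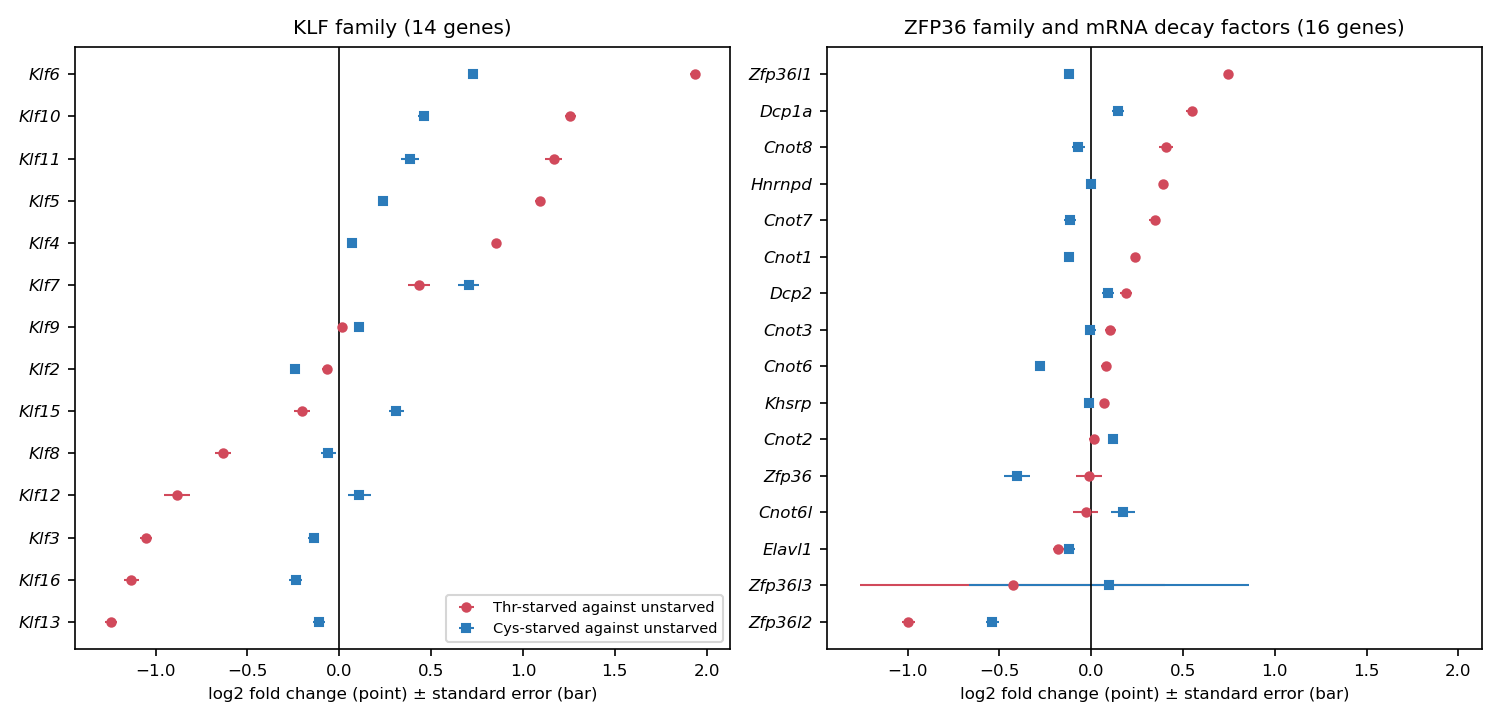
Change of the listed KLF genes (left) and of the ZFP36 family with mRNA decay factors and other RNA-binding proteins (right). Values are log2 fold changes against unstarved cells (x axis). Circles are Thr, squares are Cys starvation and bars are standard errors. Klf6 and Klf10 lie at the top of the listed KLF genes with Thr at 1.94 and 1.26, and Klf13 lies at the bottom at -1.24. Zfp36l1 and Zfp36l2 lie at opposite ends of the right panel.

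Egr1 and Nr4a1, the best known growth factor responders of the set, went in opposite directions with Thr starvation. Egr1 (ENSMUSG00000038418; chromosome 18, 34859823 to 34864984) encodes a zinc-finger activator downstream of ERK and SRF. It was at 13.7, 13.4 and 13.6 CPM in unstarved, 15.3, 14.7 and 14.7 CPM in Cys-starved and 18.9, 19.5 and 17.6 CPM in Thr-starved libraries. Every Thr-starved library was above every other library, and the Cys-starved ones lay just above the unstarved ones. The log2 increase with Thr was 0.46 (SE 0.054, adjusted p = 1.3e-07 from edgeR), a fold change of 1.37. With Cys the change of 0.14 (SE 0.055, adjusted p = 0.056 from edgeR) missed the threshold, with a 95% interval of 0.023 to 0.25, and 4 of 17 alternative settings called it (adjusted p of 0.0061 to 0.19 over all of them).

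Nr4a1 (ENSMUSG00000023034; chromosome 15, 101254269 to 101274795), which encodes the nuclear receptor NUR77, fell with Thr. Its level was 50.7, 54.7 and 49.8 CPM in unstarved and 52.7, 57.1 and 51.4 CPM in Cys-starved libraries, and 19.5, 21.9 and 22.6 CPM in Thr-starved ones. The unstarved and Cys-starved libraries overlapped, and all Thr-starved libraries lay far below both. The log2 fold change with Thr was -1.27 (SE 0.052, adjusted p = 1.5e-15 from edgeR), to 41.4% of the unstarved level, and ranked 263 from the bottom among the 11410 genes. With Cys it was 0.054 (95% interval -0.046 to 0.15, adjusted p = 0.43 from edgeR).

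Relatives and corepressors of this pair are given from a fixed list. Of 7 other genes, which were Egr2, Egr3, Egr4, Nr4a2, Nr4a3, Nab1 and Nab2, 1 was called higher, 4 lower and 2 not called with Thr. None of the 7 was called with Cys. All EGR and NR4A relatives were under 1 CPM on average. Nab1 and Nab2, which bind EGR proteins and repress their activity, were lower with Thr by log2 fold changes of -0.66 (SE 0.094) and -1.10 (SE 0.10). Nab2 went from 6.89 ± 0.835 to 3.21 ± 0.102 CPM (SD, n = 3 each).

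The IER genes shared a name and no common direction. Ier2 (ENSMUSG00000053560; chromosome 8, 84661331 to 84662852), an intronless gene for a nuclear protein, was at 144, 149 and 149 CPM in unstarved, 142, 140 and 145 CPM in Cys-starved and 215, 215 and 219 CPM in Thr-starved libraries. Only the Thr-starved libraries stood apart. The log2 increase with Thr was 0.56 (SE 0.025, adjusted p = 4.9e-15 from edgeR). The change with Cys was -0.049 (95% interval -0.10 to 0.0021, adjusted p = 0.13 from edgeR). It turned to 0.014 with library totals as the scaling. With the deposited size factors it was -0.091 and called lower (adjusted p = 0.0057 from edgeR).

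Ier3 (ENSMUSG00000003541; chromosome 17, 35821684 to 35822923), whose product IEX-1 acts on cell survival, fell in both starvations. It was at 4.40, 4.55 and 3.75 CPM in unstarved, 3.02, 2.94 and 3.19 CPM in Cys-starved and 2.33, 2.39 and 2.09 CPM in Thr-starved libraries, from 114 to 275 counts per library. The groups formed 3 steps downward without overlap, with log2 fold changes of -0.48 with Cys (SE 0.11, adjusted p = 0.0013 from edgeR) and -0.91 with Thr (SE 0.12, adjusted p = 3.4e-07 from edgeR).

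Ier5 (ENSMUSG00000056708; chromosome 1, 155096361 to 155099636), an intronless gene whose product acts on the heat shock factor HSF1, was at 98 to 186 counts per library, with the lowest mean CPM of the set in unstarved and Cys-starved cells and a mean next to that of Ier3 in Thr-starved cells. Its level was 2.61, 3.08 and 2.67 CPM in unstarved, 2.06, 1.85 and 2.18 CPM in Cys-starved and 2.65, 2.05 and 2.21 CPM in Thr-starved libraries. The Thr-starved libraries overlapped both other groups. The fall with Cys was -0.46 (SE 0.13, adjusted p = 0.0091 from edgeR), a call that was lost without unstarved replicate 2 (-0.38, adjusted p = 0.058). With Thr the change of -0.28 was not called (95% interval -0.56 to -0.0010, adjusted p = 0.075 from edgeR), although without Thr-starved replicate 1 it was (-0.38, adjusted p = 0.030). Of the remaining IER genes, Ier5l had changes of -0.87 with Thr (SE 0.066) and -0.20 with Cys (SE 0.062), both called lower.

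The AU-rich binding proteins differed as well. Zfp36 (ENSMUSG00000044786; chromosome 7, 28376784 to 28380253) encodes tristetraprolin, which shortens the poly(A) tails of its targets through the CCR4-NOT complex. It was at 11.7, 10.8 and 10.3 CPM in unstarved, 8.71, 8.10 and 8.03 CPM in Cys-starved and 10.8, 11.7 and 10.3 CPM in Thr-starved libraries. The Thr-starved and unstarved ranges lay on top of each other and the Cys-starved one lay below both. The log2 fold change was -0.40 with Cys (SE 0.071, adjusted p = 0.00010 from edgeR) and -0.011 with Thr (95% interval -0.16 to 0.13, adjusted p = 0.90 from edgeR). In its transcript with the longest coding sequence, bases 104 to 389 hold stretches close to 231 other genes. The antisense gene Gm44710 shares 1274 bases with Zfp36. The other 9 members had no such near-identical stretch. The search covered a single coding transcript per gene, and not pseudogenes, noncoding genes or other transcripts.

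Zfp36l1 (ENSMUSG00000021127; chromosome 12, 80107754 to 80113013), the most abundant member of that family here, was at 130, 133 and 135 CPM in unstarved, 118, 124 and 124 CPM in Cys-starved and 219, 224 and 225 CPM in Thr-starved libraries. No group overlapped another. Its log2 fold change was 0.75 with Thr (SE 0.026, adjusted p = 7.6e-17 from edgeR) and -0.12 with Cys (SE 0.026, adjusted p = 0.00079 from edgeR). The fall, to 92.0% of the unstarved level, was not called with library totals as the scaling (-0.057, adjusted p = 0.088). The noncoding gene Gm26669, which lies opposite to it and was not among the tested genes, shares 4967 of its bases, and without strand in the counting their reads cannot be told apart.

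Zfp36l2, the third of the family's expressed genes, fell in both starvations, with log2 fold changes of -0.996 with Thr (SE 0.035) and -0.54 with Cys (SE 0.034). A list of 14 genes outside the set held relatives, decay factors and other RNA-binding proteins such as Elavl1. Of these, 9 were called higher and 2 lower with Thr (median 0.092), and 4 higher and 5 lower with Cys (median -0.0078). The decapping factor Dcp1a rose by 0.55 with Thr (SE 0.032) and 0.15 with Cys (SE 0.032). The deadenylase subunit Cnot8 rose by 0.41 with Thr (SE 0.037), and Cnot6 had changes of 0.080 with Thr (SE 0.027) and -0.28 with Cys (SE 0.027).

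Maff (ENSMUSG00000042622; chromosome 15, 79346621 to 79359076) encodes a small MAF protein that lacks a transactivation domain and pairs with NRF and BACH factors. It was at 4.96, 4.65 and 5.56 CPM in unstarved, 5.89, 5.36 and 5.00 CPM in Cys-starved and 10.0, 11.9 and 10.3 CPM in Thr-starved libraries. The Thr-starved libraries stood alone and the other groups overlapped. The log2 increase with Thr was 1.09 (SE 0.090, adjusted p = 3.7e-10 from edgeR), and the change with Cys was 0.10 (95% interval -0.097 to 0.30, adjusted p = 0.45 from edgeR). Its paralog Mafk rose by 0.56 with Thr (SE 0.085), and of the partners Nfe2l2, which encodes NRF2, rose by 1.02 with Thr (SE 0.031) and 0.21 with Cys (SE 0.031). Nfe2l1 rose by 0.60 with Thr and by 0.41 with Cys (SE 0.025 each), and Bach1, a repressor, had changes of -0.30 (SE 0.048) and -0.17 (SE 0.047). Over the 8 listed partners and paralogs, 4 were called higher and 3 lower with Thr, and 2 higher and 1 lower with Cys.

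Thr-starved libraries were also set against the Cys-starved ones directly. Of the members 7 were higher and 2 lower with Thr, where 30.4% and 31.6% of all genes were, and 9 members had libraries that did not overlap, against 65.8% of all genes. Among genes averaging 5 CPM or more, 80.6% were called in either direction. With library totals as the scaling the calls over all genes went from 6123 higher and 6365 lower to 4960 higher and 7442 lower, while the counts of members stayed at 7 higher and 2 lower. A 2-fold difference was found in Klf6 and Nr4a1, against 11.4% of all genes. Klf6 was higher with Thr by 1.21 (SE 0.026, adjusted p = 3.0e-20 from edgeR), and the difference of Nr4a1 was -1.33 (SE 0.052, adjusted p = 8.4e-16 from edgeR). The next were Maff at 0.98 (SE 0.089), Zfp36l1 at 0.87 (SE 0.026), Klf10 at 0.80 (SE 0.029) and Ier2 at 0.61 (SE 0.025). Ier3 differed by -0.43 (SE 0.12), Zfp36 by 0.39 (SE 0.072) and Egr1 by 0.32 (SE 0.053), with adjusted p of 0.0030, 5.6e-05 and 1.6e-05 from edgeR. Ier5 was the exception, at 0.18 with a 95% interval of -0.11 to 0.46 (adjusted p = 0.27 from edgeR).

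**Figure D3:**
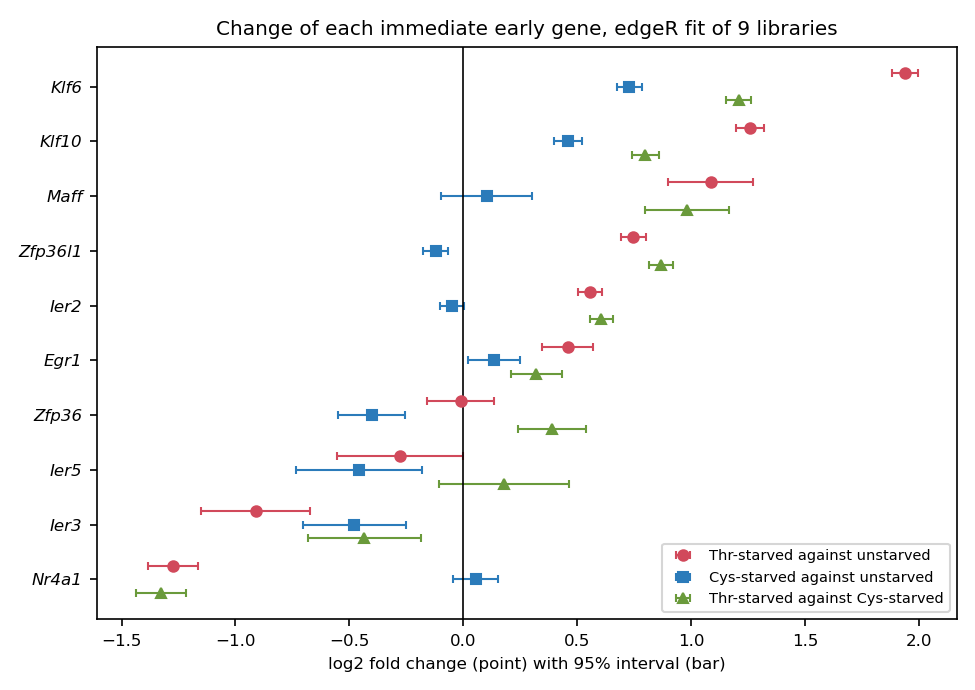
Log2 fold change (x axis) of each gene in the 3 comparisons, with 95% intervals from the edgeR fit as bars. Thr starvation (circles) spreads the genes from -1.27 (Nr4a1) to 1.94 (Klf6), Cys starvation (squares) from -0.48 (Ier3) to 0.73 (Klf6), and the triangles give Thr against Cys.

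The set thus held 7 patterns of calls over the 3 comparisons, and the most frequent, higher with Thr than in both other groups and no call with Cys, was that of 3 genes (Egr1, Ier2 and Maff). Klf6 and Klf10 shared a call of higher in all 3 comparisons. Ier3 was the only gene of the 10 lower in all 3, and Zfp36l1 the only one called in opposite directions by the starvations.

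Levels were compared between genes as CPM per kb of annotated exon. Unstarved cells had most Ier2, at 96.7 ± 1.69 CPM per kb (SD, n = 3), followed by Zfp36l1 at 44.4 ± 0.760 and Klf10 at 22.1 ± 0.671. Klf6 at 15.6 ± 0.335 and Nr4a1 at 14.8 ± 0.737 came next and their libraries overlapped. Neighbours further down also overlapped, namely Ier3 (3.74 ± 0.378) with Zfp36 (3.15 ± 0.195), and Zfp36 with Egr1 (3.02 ± 0.0420). Maff (1.95 ± 0.179) and Ier5 (0.851 ± 0.0773) were last. In Thr-starved cells Klf6 passed Klf10 (59.7 ± 0.859 against 53.0 ± 1.44 CPM per kb), Nr4a1 was at 6.08 ± 0.461, and Maff (4.14 ± 0.394) lay level with Egr1 (4.17 ± 0.215), whose libraries it overlapped. In Cys-starved cells Egr1 (3.32 ± 0.0835) stood above Ier3 (2.69 ± 0.113) and Zfp36 (2.39 ± 0.108). The annotated exons of Zfp36 take in the intron of its coding transcript, and they extend upstream of the start site of the printed window. They cover all 3470 bases of the gene, against 2790 in that transcript, so its level per kb depends on that annotation.

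**Figure D4:**
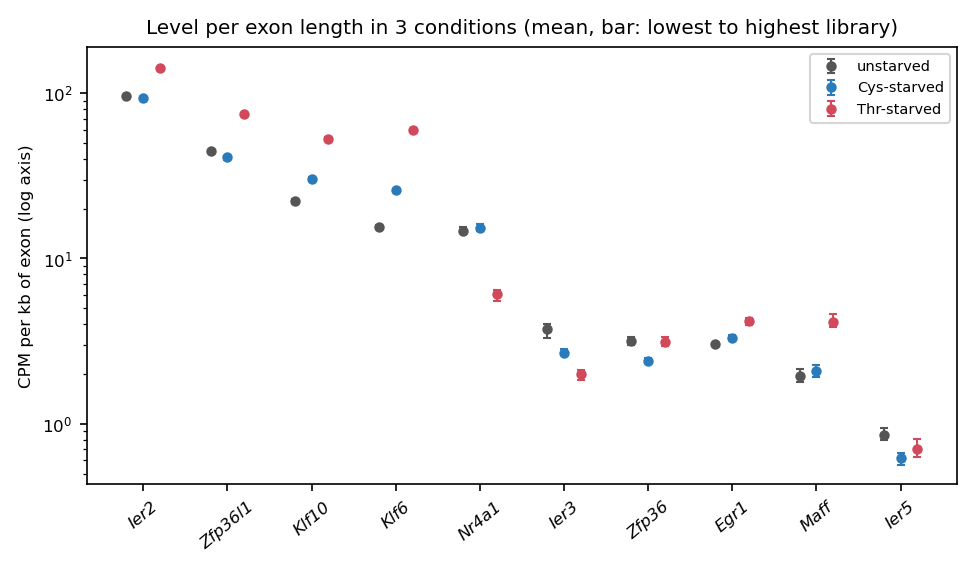
Level per kb of exon (y axis, log scale) of each gene in unstarved, Cys-starved and Thr-starved cells; points are means of 3 libraries and bars run from the lowest to the highest. Ier2 is highest in every condition (96.7, 93.5 and 142 CPM per kb) and Ier5 lowest.

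The kinases and factors upstream of these genes were taken from a list of 13, which were SRF, its cofactors, ERK pathway kinases and CREB1. With Thr 4 were called higher and 8 lower (median -0.44), and with Cys 2 higher and 2 lower (median -0.026). Elk3, a ternary complex factor, changed by -1.46 with Thr (SE 0.070), the kinase genes Map2k1 by -0.82 (SE 0.034) and Rps6ka1 by -0.73 (SE 0.026). Creb1, whose product binds the CRE, rose by 0.43 with Thr (SE 0.033) and 0.16 with Cys (SE 0.033), and Mrtfb, an SRF cofactor, changed by -0.60 and -0.18. These are mRNA levels and not kinase activities.

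The genes most like Egr1 and Klf6 over the 9 libraries were sought among the 11410 genes averaging 5 CPM or more, by the Euclidean distance of log2(CPM + 0.5) after subtraction of the unstarved mean. For Klf6 they were Gadd45a (distance 0.18), Gm10557 (0.25) and Mecom (0.29), with log2 fold changes of 1.88, 1.93 and 2.01 with Thr and 0.80, 0.60 and 0.81 with Cys. For Egr1 they were Hook3 (0.071), Gfpt2 (0.093) and Hjurp (0.093), with changes of 0.46, 0.43 and 0.46 with Thr.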

How the data were processed

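Libraries were made from poly(A) RNA, 3 per group for unstarved, Thr-starved and Cys-starved cells, and sequenced from both ends. The authors aligned reads to GRCm38 with STAR 2.7.4a, made counts per gene with HTSeq and deposited them without normalization; strand and overlap settings are not given in the sources used here. A further deposited table holds a signal, the counts divided by DESeq2 size factors by the authors, and gave only the scaling of an alternative.

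Columns were matched to samples by the condition and replicate number in titles and library names. The 20143 genes with at least 1 count were fitted with edgeR 4.0.16 in R 4.3.3 (TMM, quasi-likelihood F test, 9 libraries, groups only), with Benjamini-Hochberg adjustment over all genes per comparison and calls at 0.05. The common dispersion corresponded to a variation of 3.53% between replicates. SE is the size of the log2 fold change divided by the root of F, and 95% intervals use the total (residual plus prior) degrees of freedom of the fit. On simulated counts edgeR recovered 185 of 200 changed genes among 20141 with 12 false calls. In the measured libraries 12689 genes were called with Thr, and recovery with so many changed genes was not tested.

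The 10 members and the lists were chosen with earlier results of these data known. Besides the members, at most 3 called genes per list and starvation with a mean of at least 5 CPM and the largest changes were named. Relatives under 1 CPM, and the listed names beside a count, were named without values, and marker genes were named from their lists. Symbols, coordinates and exons came from GENCODE M21 on GRCm38, near-identical stretches (at least 90% over 100 bases) from BLAST 2.17.0, and promoters from RefSeq. Alternatives were RLE, deposited size factors, library totals, DESeq2 1.42.0, filterByExpr, at least 10 counts in every library, the replicate block, fits limited to the groups under comparison, and each fit without 1 library. Intervals and SEs rest on 3 libraries a group.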

Additional observations from a re-analysis of the deposited data

How the results depend on the processing

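Each of the 30 member values (10 genes in 3 comparisons) was recomputed in 17 alternatives, 9 of which left out a library. Of 510 values, 499 kept direction and side of the threshold, 6 gained a call, 2 lost it and 3 changed sign. The sign changes were Zfp36 with Thr without unstarved replicate 1 (0.043) and without Thr-starved replicate 3 (0.035), and Ier2 with Cys under library totals (0.014), none of them called; leaving out single libraries moved Zfp36 with Thr between -0.060 and 0.043. No count of called members, and no count of all genes called in either direction, moved by over 1.5 times. A count that goes from 2 to 3 cannot pass this limit, and such moves occurred. Examples are the members called higher with Cys under library totals, and those called lower with Thr without Thr-starved replicate 1. Genes called lower with Cys went from 3790 to 2387 under library totals, and those called higher from 3523 to 5062. The titles number replicates, but same-numbered libraries correlated at -0.24 to 0.11 in their deviations from the group means, so they were not taken as pairs. With the replicate block, 12488 genes were called with Thr, 7063 with Cys and 12334 between them, and no member changed its call. Depth limits Ier5 and Ier3 most.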

Other observations

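Of 36 other immediate early genes outside AP-1, listed by name, 35 were tested. Egr2, Egr3, Egr4, Nr4a2, Nr4a3, Ier5l, Klf2 and Klf4 were also counted in the family lists above. Egr2, Egr3, Egr4, Nr4a2, Nr4a3 and Gem averaged under 1 CPM. With Thr starvation 20 were called higher and 12 lower, 8 and 5 of them by 2-fold or more (median log2 fold change 0.35, against -0.02 over all genes). With Cys 14 were called higher and 7 lower (median 0.11, against 0.0068). Of all tested genes, 31.1% were called higher, 31.9% lower and 13.2% at 2-fold or more with Thr. The shares with Cys were 17.5% higher and 18.8% lower. Of genes averaging 5 CPM or more, 80.6% were called in either direction with Thr and 55.0% with Cys. Plk2, a polo-like kinase gene and p53 target, rose with Thr from 28.3 ± 1.23 to 102 ± 0.833 CPM (SD, n = 3 each) and was at 22.8 ± 0.443 CPM with Cys, log2 fold changes of 1.84 (SE 0.036) and -0.31 (SE 0.039), both called in edgeR's test. Nfil3, a bZIP repressor, went the other way, at -0.45 with Thr (SE 0.10) and 0.79 with Cys (SE 0.090). Ccn1, Rnd3 and Rhob, genes tied to the actin cytoskeleton and adhesion, rose in both starvations, by 1.74, 1.56 and 1.45 with Thr and by 0.46, 0.54 and 0.82 with Cys. Gadd45b rose by 1.58 with Thr (SE 0.091), and its change of 0.11 with Cys was not called (adjusted p = 0.43 from edgeR).

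Of the 7 AP-1 genes, 4 were called higher and 1 lower with Thr, and 3 higher and 1 lower with Cys. The shares over all tested genes were 31.1% higher and 31.9% lower with Thr, and 17.5% and 18.8% with Cys. Jun rose by 2.91 with Thr (SE 0.061) and 0.92 with Cys (SE 0.068), a larger change than that of any of the 10 genes in either starvation. Junb, at 0.96 with Thr (SE 0.037) and -0.35 with Cys (SE 0.039), shared the opposite calls of Zfp36l1.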
